A study of Mus musculus with 6 samples.

Results

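The matricellular glycoproteins described here are Thbs1, Thbs2, Thbs3, Sparc, Tnc, Spp1, Postn and Tgfbi, taken as all probes whose platform gene symbol is one of these 8. The family was chosen by the difference of Thbs1 between the 2 cell populations, so member differences are given as a description without a test. In all, 20 of the 45281 probes on the array belonged to 7 of the members, of 19057 genes named on the array, and Spp1 (osteopontin) is named only. The samples were CD133+ cells (3 arrays) and CD133- cells (3 arrays) of KPC001, a pancreatic cancer cell line from the KPC mouse model, grown in high-glucose medium with serum and given no treatment. KPC001 is a single line, and CD133, the product of Prom1, is a membrane protein by which tumour-initiating cells are often sorted; the labels call all samples tumour-initiating cells. Each array measured total RNA as biotin-labelled cRNA in 1 colour on Illumina mouse bead arrays, and nothing states that the 3 samples of a group were cultured or sorted apart, so errors and p-values cover the variation among these arrays alone, and that may be technical.

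Matricellular proteins are secreted into the extracellular matrix but do not build its fibres. They bind structural proteins, proteases, growth factors and cell surface receptors such as integrins, and so change how cells attach, move and respond to growth factors. In pancreatic ductal cancer several of them are abundant in the fibrous stroma, where fibroblasts and stellate cells are a main source, while tumour cells can also make them.

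Detection, meaning a signal above nearly all negative control probes (detection p under 0.05), was reached by 37.8% to 39.9% of probes per array, and 37 to 41 beads at the median stood behind a probe. All 3 probes of Prom1 were undetected on all 6 arrays, so the sort cannot be checked by that transcript. Of 10 epithelial markers 9 were tested, Krt8, Krt18, Krt19 and Cdh1 among them, and the 1 probe of Epcam was undetected on every array. Of 11 fibroblast and stellate cell markers Col1a1 and Acta2 were tested, and Lum, Fap, Pdpn and Thy1 had no detected probe. Pdgfra, Pdgfrb, Dcn, Des and Col3a1 had probes detected on too few arrays to be tested. Levels are log2 intensities after background correction and quantile normalization, on which a probe at background lies near 4.5 and levels of different probes are not comparable. In bulk RNA of this kind, fewer cells that make a transcript and less of it per cell cannot be told apart.

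Across the family, detection split the members. Thbs1, Thbs3 and Sparc had a probe detected on all 6 arrays, Tgfbi and Tnc had probes detected on some of them, and Thbs2 and Postn were undetected throughout. By probe, 4 of the 20 were detected on all arrays, 8 on some and 8 on none. The filter for testing, detection on at least 3 of the 6 arrays, kept 9 probes of 5 genes. Signal over background shows how far a probe stood above background, not how much transcript there was. The plot of intensity over background shows this range for every member probe.

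**Figure D1:**
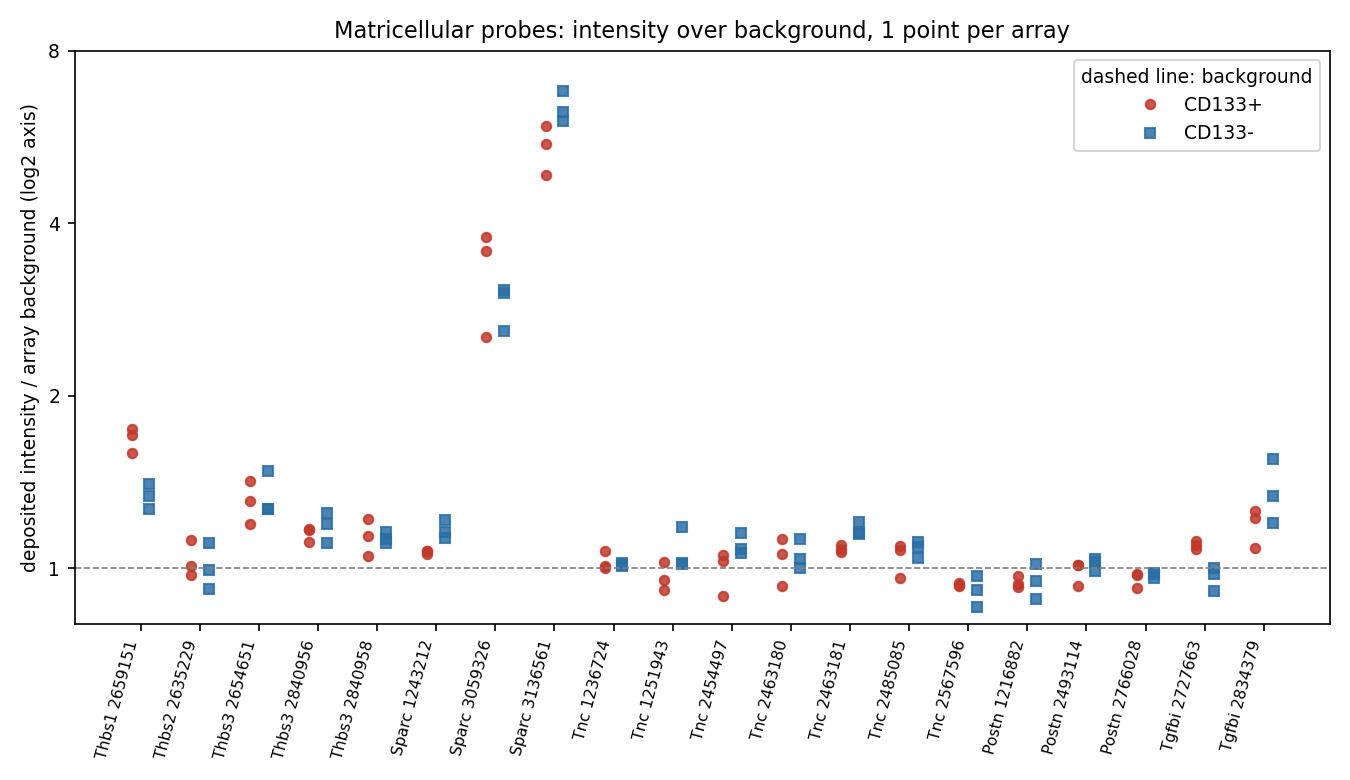
Deposited intensity of each of the 20 member probes divided by the background of its array (log2 axis, 1 point per array, CD133+ circles left of CD133- squares, number after the symbol is the Illumina probe number). Sparc probes ILMN_3059326 and ILMN_3136561 lie 2.53 to 6.80 times above background, and the other 18 probes lie between 0.856 and 1.75 times.

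Thrombospondins are the largest group among the members. Thbs1, thrombospondin 1, is a trimeric glycoprotein that activates latent TGF-beta, binds the receptors CD36 and CD47, and restrains blood vessel growth. Its 1 probe, ILMN_2659151, had deposited intensities of 198, 193 and 173 in CD133+ cells, against 153, 159 and 148 in CD133- cells. The normalized log2 values were 6.62, 6.65 and 6.40 in CD133+ cells and 5.63, 5.91 and 5.60 in CD133- cells. All 3 CD133+ arrays lay above all 3 CD133- arrays, and all 6 detected the probe, at 1.59 to 1.75 times background in CD133+ cells and 1.27 to 1.40 times in CD133- cells. Group means were 6.55 ± 0.14 in CD133+ and 5.72 ± 0.17 in CD133- cells (SD, n = 3 each), a difference of 0.84 ± 0.12 (SE) or 1.79-fold.

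That difference is what chose the family. It was past an adjusted p of 0.05 over all 17219 tested probes, the 1 member probe of 9 to be so. Of all tested probes 1.53% were past it, 1.25% higher and 0.279% lower in CD133+ cells. Its size depended on the background correction, with 0.35 without it and 0.36 in the intensities processed by the authors. With any 1 array left out the difference was 0.78 to 0.94 but missed the threshold each time, and it also missed it with a median shift (0.78) and with the replicate number as a block (0.84). Between 30 and 39 beads carried the Thbs1 value on each array, with a standard error of 3.85% to 5.37% of the intensity. No second Thbs1 probe was listed, so agreement between probes could not be examined for this gene.

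Among 12500 probes detected on all arrays and named by 1 other gene, the profiles over the 6 arrays nearest to Thbs1 belonged to Ensa, Tram1 and Nsdhl. Likeness was the root mean square difference of the log2 profiles after each was centred on its mean, and it was 0.053 for Ensa, 0.060 for Tram1 and 0.066 for Nsdhl. Ensa encodes an inhibitor of the phosphatase PP2A, Tram1 a protein of the translocation channel of the endoplasmic reticulum, and Nsdhl a dehydrogenase of sterol synthesis. Their differences between CD133+ and CD133- cells were 0.83 ± 0.10, 0.85 ± 0.09 and 0.88 ± 0.10 (SE), which the measure of likeness itself selects for.

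Thbs2, thrombospondin 2, shares the type I repeats and the anti-angiogenic action of Thbs1 but does not activate TGF-beta. Its 1 probe had log2 levels of 4.88, 4.38 and 4.47 in CD133+ cells and 4.44, 4.30 and 4.85 in CD133- cells, undetected on all of them. The populations overlapped at background, and no fold is given. Thbs3 belongs to the pentameric thrombospondins, which lack the type I repeats. Its brightest probe, ILMN_2654651, had log2 levels of 5.95, 5.24 and 5.66 in CD133+ cells and 6.01, 5.51 and 5.59 in CD133- cells. Detected on all 6 arrays, its groups overlapped, with a difference of -0.09 ± 0.20 and a 95% interval from -0.56 to 0.39. Its other probes were detected on 4 of 6 arrays each, 2 in either population, and gave -0.15 ± 0.17 and 0.03 ± 0.18. The 3 Thbs3 probes thus lay around 0, and the upper ends of their intervals were 0.39, 0.26 and 0.44.

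The promoters of these paralogs are shown because the array detected RNA of one and not of the other, with Sparc, detected furthest above background, beside them. Each runs from 250 bases before to 50 bases after a transcription start in RefSeq (GRCm38.p6), 5′ to 3′ on the gene's strand, and capitals mark matches on either strand to 4 motifs: the TATA box (TATAAA), the CCAAT box (CCAAT), the GC box (GGGCGG) and the AP-1 element (TGANTCA).
Thbs2, chr17:14694213-14694512, minus strand: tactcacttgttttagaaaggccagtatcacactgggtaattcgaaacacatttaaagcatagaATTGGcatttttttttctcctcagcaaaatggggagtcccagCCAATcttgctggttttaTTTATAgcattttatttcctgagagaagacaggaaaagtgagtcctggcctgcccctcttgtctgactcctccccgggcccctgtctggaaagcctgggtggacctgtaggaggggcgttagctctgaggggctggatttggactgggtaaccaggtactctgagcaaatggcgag
Thbs3, chr3:89214930-89215229, plus strand: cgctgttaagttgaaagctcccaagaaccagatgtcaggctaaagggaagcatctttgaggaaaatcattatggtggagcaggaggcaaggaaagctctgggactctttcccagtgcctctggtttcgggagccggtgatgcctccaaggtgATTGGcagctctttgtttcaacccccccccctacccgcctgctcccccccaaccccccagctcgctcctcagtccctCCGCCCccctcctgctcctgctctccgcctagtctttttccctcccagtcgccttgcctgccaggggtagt
Sparc, chr11:55420031-55420330, minus strand: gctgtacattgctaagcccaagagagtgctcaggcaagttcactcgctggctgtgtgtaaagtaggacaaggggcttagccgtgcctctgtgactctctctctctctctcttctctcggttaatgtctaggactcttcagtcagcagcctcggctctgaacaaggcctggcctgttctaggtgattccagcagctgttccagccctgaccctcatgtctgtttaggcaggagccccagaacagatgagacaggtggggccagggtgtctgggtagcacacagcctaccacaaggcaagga

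The Thbs2 window held a TATA box on the opposite strand with its first base at position -126 from the start. It also held CCAAT boxes at -186 on the opposite strand and at -144 on the gene's strand. The Thbs3 window held a CCAAT box at -98 and a GC box at -21, both on the opposite strand, and the Sparc window held none of the 4 motifs. Over all 32851 promoters of this length, 13.6% hold the TATA box, 37.4% the CCAAT box, 35.7% the GC box and 7.81% the AP-1 element. G and C made up 48.3% of the Thbs2 window, 59.0% of that of Thbs3 and 55.3% of that of Sparc, against a median of 52.7% over all promoters. These are matches of letters and do not show that a factor binds there.

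Sparc, also called osteonectin, is a collagen-binding glycoprotein that counters cell adhesion. Its brightest probe, ILMN_3136561, had log2 levels of 9.04, 8.94 and 9.23 in CD133+ cells and 9.20, 9.17 and 9.25 in CD133- cells. The groups overlapped and the difference was -0.14 ± 0.10. ILMN_3059326 had 8.35, 7.66 and 8.34 in CD133+ cells and 7.77, 7.89 and 7.70 in CD133- cells, with CD133+ replicates 1 and 3 above all CD133- arrays and CD133+ replicate 2 below them. Its difference was 0.33 ± 0.19, or 0.56 without CD133+ replicate 2 and 0.21 without CD133+ replicate 1. The dimmest probe, ILMN_1243212, had 4.64, 4.66 and 4.68 in CD133+ cells, where no array detected it, and 5.01, 4.93 and 5.37 in CD133- cells, where all 3 did.

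Because ILMN_1243212 was not well above background on any CD133+ array, only a bound can be given. With the background correction used here it was at least 1.15-fold lower in CD133+ cells. This bound sets the CD133- mean against, per CD133+ array, the higher of the lowest detected signal and the probe's own signal. The difference was -0.13 without background correction and -0.14 in the authors' intensities, so the bound does not hold there. The probe entered the tested set only through its CD133- arrays, so it had to differ, and it was 1 of the 8 tested member probes besides Thbs1 that missed the threshold.

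**Figure D2:**
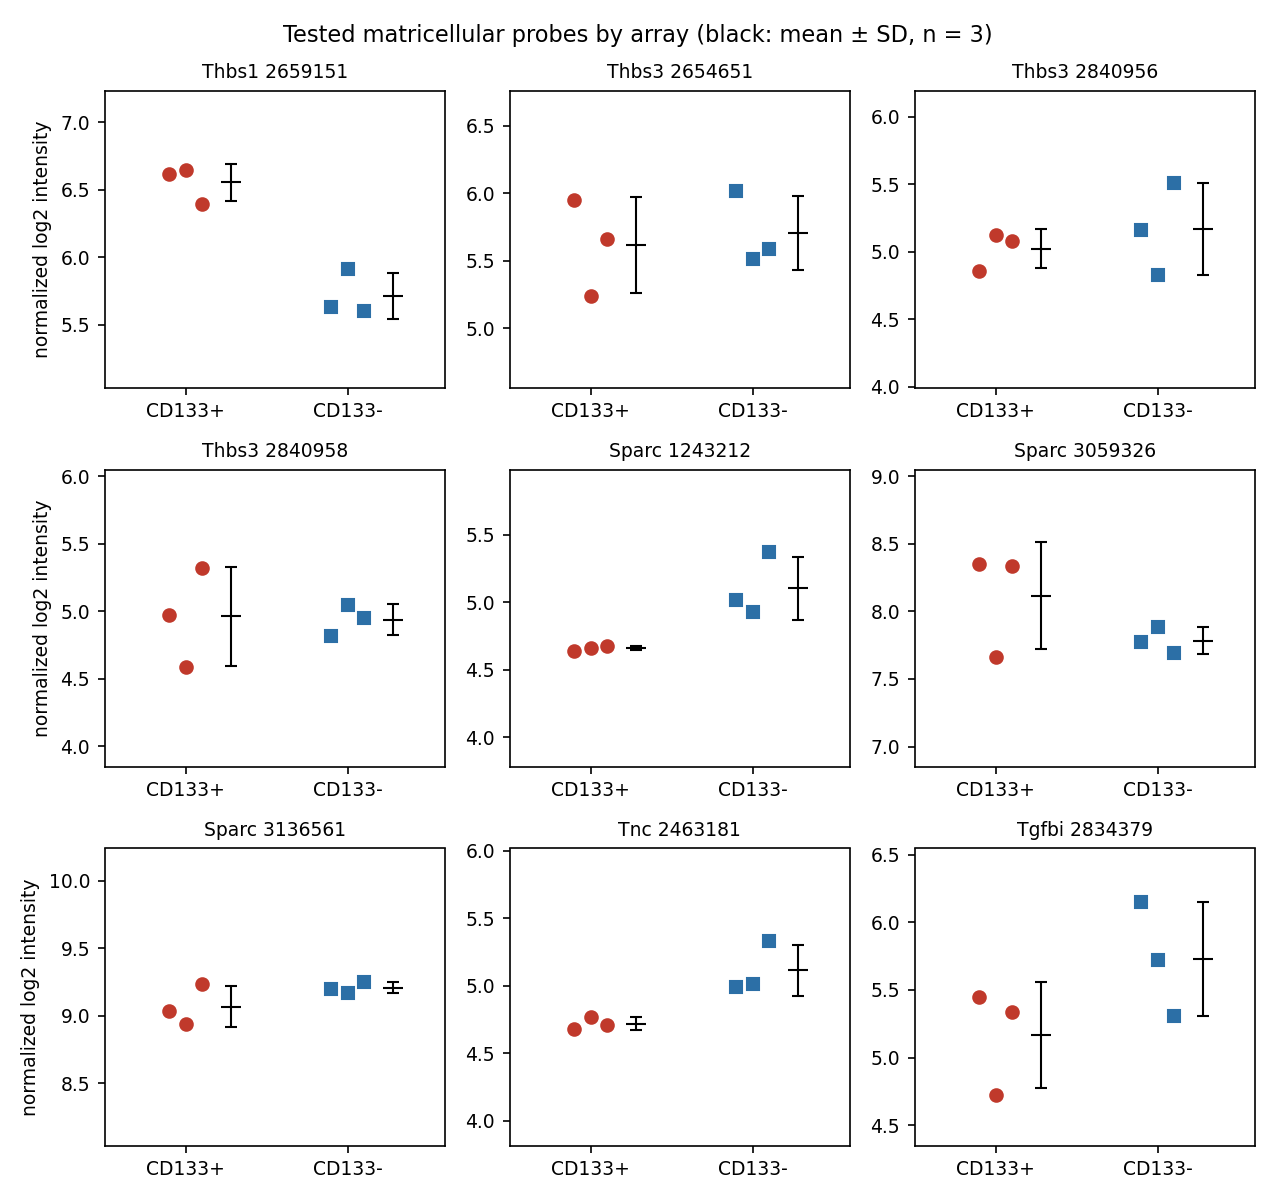
Normalized log2 intensity of the 9 tested member probes, 1 point per array, CD133+ circles left of CD133- squares, with the mean ± SD of each group in black and the same axis span in each panel. The groups do not overlap for Thbs1, where CD133+ cells are higher, and for Sparc ILMN_1243212 and Tnc ILMN_2463181, where CD133+ cells are lower.

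Tnc, tenascin C, is a hexameric glycoprotein of tumour stroma and wounds that binds integrins and fibronectin. Of its 7 probes 3 were undetected on every array, 3 were detected on 1 or 2 arrays, and ILMN_2463181 was detected on the 3 CD133- arrays alone. That probe had log2 levels of 4.68, 4.77 and 4.71 in CD133+ cells and 4.99, 5.01 and 5.33 in CD133- cells. As for the dim Sparc probe, it was tested through its CD133- arrays only and missed the threshold. With the background correction used here it was at least 1.16-fold lower in CD133+ cells. Its difference was -0.12 without background correction and -0.13 in the authors' intensities, so this bound does not hold there either. Of the untested Tnc probes, ILMN_1236724, ILMN_2463180, ILMN_2485085 and ILMN_2567596 had groups that overlapped, and ILMN_1251943 and ILMN_2454497 had groups that did not. The first of these last had 4.36, 4.51 and 4.29 in CD133+ cells against 4.52, 5.15 and 4.51 in CD133- cells. The second had 4.62, 4.52 and 4.27 in CD133+ cells against 5.01, 4.65 and 4.73 in CD133- cells. Each of these was detected on 1 CD133- array, so both populations lay at or next to background, and no fold is given. Groups did not overlap in 23.1% of all tested probes, a set without these untested ones, and the share among untested probes was not computed.

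Postn, periostin, is an integrin ligand made by fibroblasts and known from desmoplastic stroma. None of its 3 probes was detected on any array, with log2 levels of 4.31 to 4.49 in CD133+ cells and 4.26 to 4.57 in CD133- cells over the 3 probes. The groups overlapped on each of the 3 probes.

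Tgfbi is a TGF-beta-induced protein with the same fasciclin domains as periostin, and it binds collagens and integrins. Its detected probe, ILMN_2834379, had log2 levels of 5.45, 4.72 and 5.34 in CD133+ cells and 6.15, 5.72 and 5.31 in CD133- cells. The groups overlapped through CD133- replicate 3, and CD133+ replicate 2 was at background. The difference was -0.56 ± 0.25 with an interval from -1.16 to 0.03, and it missed the threshold. It was -0.34 without CD133+ replicate 2, -0.35 without CD133- replicate 1 and -0.18 in the authors' intensities. The other probe, ILMN_2727663, was undetected on all arrays and had 4.88, 4.69 and 4.78 in CD133+ cells against 4.46, 4.29 and 4.40 in CD133- cells, a gap in the opposite direction within the range of background values.

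**Figure D3:**
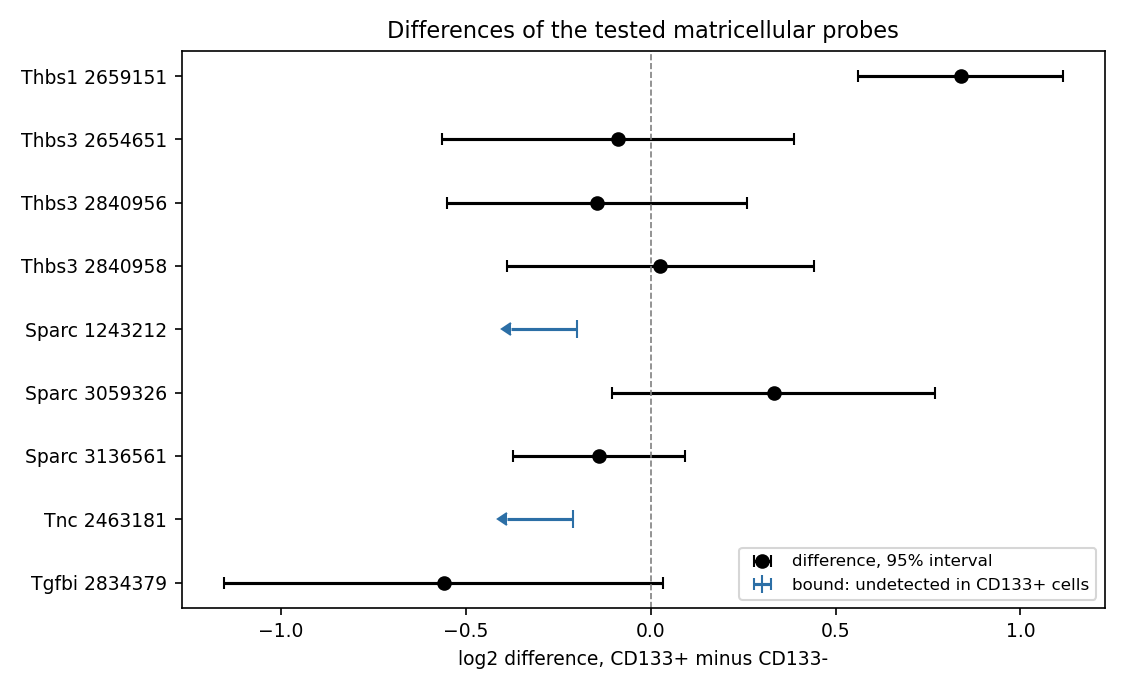
Log2 difference, CD133+ minus CD133-, of the 9 tested member probes as points with the 95% interval of the limma fit, or as an arrow from a bound where the probe was undetected in CD133+ cells. Thbs1 lies at 0.84 with an interval from 0.56 to 1.11, and the intervals of 6 probes hold 0. Sparc ILMN_1243212 and Tnc ILMN_2463181 have bounds of 1.15-fold and 1.16-fold lower with the background correction used here. The filter on detection set these apart.

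Of the 9 tested member probes, 3 had groups that did not overlap, 1 higher and 2 lower in CD133+ cells, where 23.1% of all tested probes had (11.5% higher, 11.6% lower). The 2 lower ones are the Sparc and Tnc probes that entered through their CD133- arrays. Of the 9 differences 3 were above 0 and 6 below. The median standard error of the member probes was 0.17, against 0.11 over all tested probes, so most members were measured less precisely than a typical probe. Nothing particular to the family is read from these counts, since the contrast chose it.

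The other genes of the pathway were described through lists of further matricellular proteins, receptors, the TGF-beta system, and matrix partners with their proteases. Of their 113 genes 65 were tested, each by its brightest tested probe, and 2 passed an adjusted p of 0.05 (limma over all tested probes), where 1.13% of all genes tested this way passed. Groups did not overlap in 15 of the 65, or 23.1%, against 23% of all genes, and the median difference was -0.05 against -0.02 over all tested probes.

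Receptors held both genes that passed. Of 19 tested receptors 1 rose, 1 fell and 17 did not pass, with a list median of 0.02. Itgav encodes the integrin alpha-V chain, which pairs with several beta chains into receptors for thrombospondin 1, osteopontin, periostin and tenascin C. Its probe had 8.92, 8.84 and 8.73 in CD133+ cells and 8.27, 8.09 and 8.04 in CD133- cells, with no overlap. It rose by 0.69 ± 0.10 in CD133+ cells (limma adjusted p = 0.0280, n = 3 each), and its second tested probe gave 0.22 ± 0.10. Itga5, the alpha chain of the fibronectin receptor, had 7.02, 6.97 and 6.87 in CD133+ cells and 7.46, 7.44 and 7.40 in CD133- cells. It differed by -0.48 ± 0.08 (limma adjusted p = 0.0429, n = 3 each), and its second probe gave -0.34 ± 0.12.

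Both calls were lost with any 1 array left out, where Itgav had 0.65 to 0.76 and Itga5 had -0.51 to -0.44, with a median shift, with the replicate number as a block and with the probes of a gene averaged. Itga5 also missed the threshold without the filter on dim probes and had -0.27 in the authors' intensities. Itgb1, the common partner chain of Itga5 and of several other alpha chains, had probes that went opposite ways. Its brighter probe had -0.61 ± 0.13 and did not pass, and its dimmer probe, chosen after its values were seen, rose by 0.66 ± 0.10 (limma adjusted p = 0.0324). The Itgb1 call was lost with any 1 array left out (0.60 to 0.75), with a median shift, without the filter on dim probes and with the replicate block, and the mean of both probes was 0.02. The thrombospondin receptor Cd47 was detected on all arrays, with -0.04 ± 0.08, while Cd36 and Sirpa, the partner of CD47 on other cells, were undetected on all of them. Itgb3 and Itgb8 were also undetected, whereas Itgb5 had -0.22 ± 0.10 and Itgb6 0.04 ± 0.09, which did not pass.

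**Figure D4:**
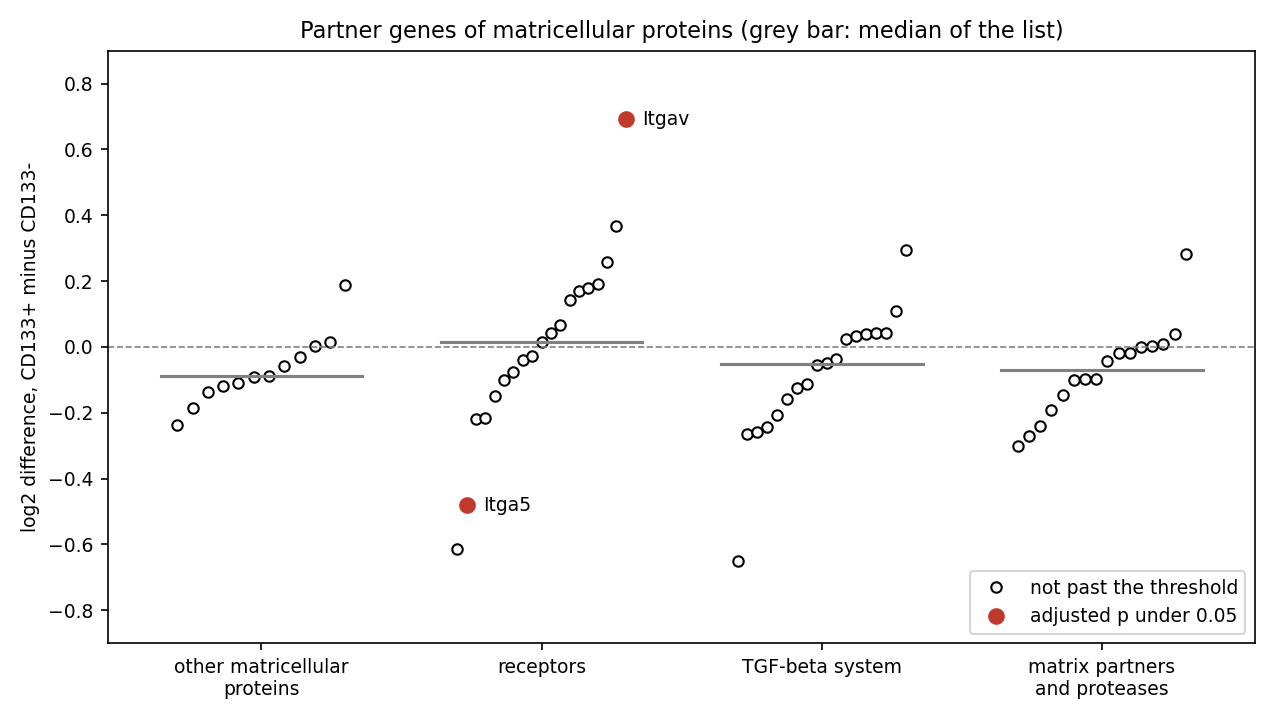
Log2 difference, CD133+ minus CD133-, of the tested genes of 4 partner lists, 1 point per gene by its brightest tested probe, filled where the adjusted p was under 0.05, with the list median as a grey bar. Itgav at 0.69 and Itga5 at -0.48 are the filled points, and most other genes lie between -0.30 and 0.30.

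In the TGF-beta system 0 of 18 tested genes passed limma's threshold, with a median of -0.05, and 2 had an unadjusted p under 0.05, which 16.6% of all tested probes had (9.08% higher, 7.52% lower). Smurf1, a ubiquitin ligase that acts on TGF-beta and BMP signalling, had 6.07, 5.42 and 5.83 in CD133+ cells and 6.38, 6.54 and 6.35 in CD133- cells. Its difference was -0.65 ± 0.16, beside -0.10 ± 0.14 on its second probe, and Ltbp1, which tethers latent TGF-beta to the matrix, had -0.26 ± 0.08. The ligands that thrombospondin 1 can activate were all detected, with 0.04 ± 0.08 for Tgfb1, 0.30 ± 0.17 for Tgfb2 and 0.11 ± 0.11 for Tgfb3.

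Among further matricellular proteins 0 of 12 tested genes passed, 1 at an unadjusted p under 0.05, with a median of -0.09, and 12 of the 28 with a probe, Thbs4 and Comp among them, were undetected on every array. The TGF-beta and YAP target Ccn2 (connective tissue growth factor) had 12.10 in CD133+ cells and 12.10 in CD133- cells, a difference of 0.00 ± 0.09, and Ccn1 had -0.09 ± 0.11. Ecm1, an extracellular matrix glycoprotein, had -0.24 ± 0.09 on its brightest probe, 0.07 ± 0.18 on the other and -0.08 with both averaged. The galectin Lgals3 had -0.14 ± 0.08. Of 16 tested matrix partners and proteases 0 passed, 2 at an unadjusted p under 0.05, with a median of -0.07. Fn1, fibronectin, had 0.28 ± 0.09 on its brightest probe and 0.07 ± 0.08 and -0.01 ± 0.09 on the others, and the basement membrane collagen chain Col4a1 had -0.30 ± 0.09.

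No marker list held a gene past limma's threshold, and an unadjusted p under 0.05 was reached by 2 epithelial, 0 fibroblast, 1 leukocyte, 1 endothelial and 0 platelet markers. The leukocyte and the endothelial one, Fcer1g and Eng, were tested only through their CD133- arrays, so they had to differ. Nothing is read from their p-values or their direction, and no fold is given. The fibroblast and stellate markers gave 0 of 2, with Col1a1 at -0.27 ± 0.13 and Acta2 at -0.02 ± 0.08 on its brightest probe and 0.22 ± 0.15, 0.29 ± 0.14 and 0.02 ± 0.16 on the others. Summed over the 11 genes of that list, most of them untested and near background, the normalized level was 411 to 451 in CD133+ cells and 458 to 480 in CD133- cells. The leukocyte markers gave 0 of 2 (summed 176 to 180 in CD133+ and 184 to 188 in CD133- cells), with Csf1r at -0.25 ± 0.11 and Fcer1g undetected on the CD133+ arrays. The endothelial markers gave 0 of 3 (308 to 316 in CD133+ and 302 to 313 in CD133- cells), with Eng undetected on the CD133+ arrays. Egfl7 had 0.09 ± 0.10 on its brightest probe and -0.03 ± 0.18 on its other tested probe. Platelets are rich in thrombospondin 1, and of their markers Pf4 and Gp9 were undetected (summed 93.1 to 124 in CD133+ and 114 to 120 in CD133- cells). Ppbp, the 1 marker tested, had -0.02 ± 0.22 on its brightest probe and -0.39 ± 0.20 on the other. Epithelial markers gave 0 of 9 (24027 to 24915 in CD133+ and 25974 to 26750 in CD133- cells), with Krt18 at -0.21 ± 0.08. Muc1 had 0.31 ± 0.11 on its brightest probe and -0.17 ± 0.12, 0.12 ± 0.21 and 0.26 ± 0.13 on the others. The leukocyte, endothelial and platelet lists, too, hold mostly untested genes near background. The epithelial sum rests mostly on its brightest genes, such as Krt8 and Krt18. Levels of different probes are not comparable, so no cell content is read from any of these sums. The part of these cell types in the Thbs1 difference was not tested.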

How the data were processed

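Gene expression was measured in 3 CD133+ and 3 CD133- samples of KPC001, 1 Illumina array each. Raw values were deposited as a mean bead intensity, its bead standard error, a bead number and a detection p-value per probe, per the file headers. That intensity is labelled non-normalized. The authors also deposited processed intensities, linear and not centred by gene, whose making no source used here gives. Groups came from the labels' cell population and replicate numbers from the titles, where a title without a number was taken as replicate 1. No slide or scan date was given.

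In R 4.3.3, neqc of limma 3.58.1 removed background by a normal-exponential fit (offset 16), with control levels taken from detection p-values, followed by log2 transformation and quantile normalization. Array background is the intensity at the detection p nearest to 0.5. The 17219 probes detected (p under 0.05) on 3 or more of 6 arrays were tested, with lmFit and eBayes, two-sided and without covariates, and Benjamini-Hochberg adjustment over all of them. The script was tested on simulated data in which 200 of 17219 probes were set to differ. It recovered 17% of those set to differ by 0.5 log2 and 63% of those set to differ by 1, with 2 false calls. A gene that did not pass may therefore still differ. Symbols came from the platform annotation (34885 probes with 1 symbol, 18 with several, 10378 not listed), and 34807 were found again by gene ID in RefSeq's table, where 0 had changed. Named genes were all member probes, Prom1, the 3 nearest profiles, and from each list up to 4 genes that passed or the 2 with the smallest p; Tgfb1 to Tgfb3, Ccn1, Ccn2, Itgb1, Cd47, Itgb5, Itgb6 and the undetected genes were added for their roles after their values were seen. Members and lists were chosen with earlier results of these data known. Alternatives changed the background correction, normalization, dim-probe filter, variance model, replicate block and arrays used.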

Additional observations from a re-analysis of the deposited data

How the results depend on the processing

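The count of probes past the threshold, 264 with 216 higher and 48 lower in CD133+ cells, moved with the processing. Leaving negative controls out of the normal-exponential fit, together with an offset of 50 in place of 16, gave 734. Uncorrected background gave 1110 (748 higher, 362 lower), the authors' intensities 1157 and a variance trend with robust estimation 1095. It was 554 with detection at 0.01 on all arrays, 113 without a filter on dim probes, 37 with a median shift (25 higher, 12 lower, which moved the median difference of tested probes to -0.13), 301 with cyclic loess and 7 to 14 with 1 array left out. Of the 65 partner genes the 2 past the threshold became 4, 7, 6 and 7 under the first 4 of these settings, 3 with strict detection, 1 without a filter, 2 with cyclic loess, and 0 with a median shift, with probes averaged and with 1 array left out (0 to 0). Thbs1 was the 1 member probe past the threshold under 7 other settings, and 0 member probes passed with a median shift and with 1 array left out (0 to 0). With the replicate block 6 probes, 0 member probes and 0 partner genes passed. The labels state no pairing, so the numbers were not taken as pairs. Same-numbered arrays had deviations that correlated at 0.02, 0.00 and 0.02 over the tested probes. Smurf1 passed in 4 other settings, and Fn1 and Col4a1 in 3 each. The called values of Thbs1, Itgav, Itga5 and the Itgb1 probe kept their sign under every alternative run for them, and those of Itgb1 were added after seeing the data. Their groups did not overlap, so leaving out 1 array could not change the sign. Changing the filter, the variance model or the block left the differences themselves as they were. Only other background corrections, normalizations and the averaging of probes could have changed the sign. Settings that drop probes or arrays test fewer of them; for the others the cause was not tested. Precision is limited by 3 arrays per group and, for most members, by signal under 1.75 times background.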
